A study of Mus musculus with 3 samples.

Results

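Kupffer cells are the macrophages that reside in the liver sinusoids, and 10 genes by which these cells are told apart from other macrophages or from other liver cells were followed here in livers expressing human YAP. The genes were Clec4f, Marco, Timd4, Vsig4, Cd163, Cd5l, Folr2, Slc40a1, Adgre1 and Csf1r. They were taken by name as markers of the cell, with earlier results of these data known, and they were measured by 13 of the 55681 probes on the arrays. In all, 13628 named genes were measured on every array, these 10 among them. Their RefSeq entries on the arrays were NM_016751 for Clec4f, NM_010766 for Marco, NM_178759 for Timd4, NM_177789 for Vsig4, NM_053094 for Cd163, NM_009690 for Cd5l, NM_008035 for Folr2, NM_016917 for Slc40a1, NM_010130 for Adgre1 with 2 probes and NM_001037859 for Csf1r with 3 probes.

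Gene expression was measured on 3 one-colour arrays of total liver RNA from C57BL/6J mice, 1 array each for YAP (WT), YAP (1SA) and YAP (2SA), all taken 2 days after injection. Per the study's methods, 8-week-old male mice received a plasmid with Myc-tagged human YAP by hydrodynamic tail vein injection, and the pLIVE vector used drives expression in hepatocytes through an albumin promoter and an AFP enhancer. The vector is thus designed for expression of the transgene in hepatocytes, and its expression in other cells was not tested here. YAP (1SA) and YAP (2SA) are active mutants that escape inhibition by the Hippo pathway, and the reference for both was a liver that also received an injection and YAP (WT). The sources do not say if the RNA came from a single mouse or several, and no uninjected liver was analysed here. The title of the YAP (WT) sample carries the number 2, whose meaning is not stated. With 1 array per group no difference could be tested, and a difference between mutants cannot be told apart from a difference between the samples.

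Kupffer cells take up bacteria, dying cells, aged erythrocytes and free haemoglobin from the portal blood, and they depend on signals through the receptor CSF1R. Clec4f, Timd4, Marco, Vsig4 and Cd5l are typical of the long-lived resident cell, whereas Adgre1 and Csf1r are shared with monocyte-derived macrophages. These probes were measured in whole liver, where fewer Kupffer cells and less RNA per Kupffer cell cannot be told apart.

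Values below are intensities, the brightness of a spot after background subtraction, and differences on the log2 scale after each array was divided by its own 75th percentile. That percentile was 290.8 for YAP (WT), 275.7 for YAP (1SA) and 319.5 for YAP (2SA). The scanner software gave an error of about 10% on the intensity of all but the dimmest of these probes, which is 0.20 for a log2 difference. From 399 probes spotted 10 times on each array, the SD of log2 intensity between spots was 0.07, and 2 SDs of a difference between arrays came to 0.21. A difference beyond this repeat-spot limit exceeds the spotting error, but the spread between animals is not known. The limit is about the size of the scanner error of a difference, so counts of genes beyond it include differences that are not firm. Each of the 13 probes was well above background on every array, and the 14 hepatocyte genes checked were measured as well.

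Of the 10 genes, those most restricted to resident Kupffer cells were lower in YAP (2SA) liver than in YAP (WT) liver, by up to 3.01-fold. The general macrophage genes Adgre1 and Csf1r stayed within the repeat-spot limit in that comparison. In YAP (2SA), 8 of 10 genes lay below YAP (WT) by more than this limit, against 19% of all genes, and none of the 10 lay above it, against 15.4% of all genes. The 8 include Cd163, a dim probe, and with another background correction (normexp) 7 genes were lower. At a 2-fold threshold 2 of 10 were lower, Clec4f and Marco, against 0.543% of all genes, and none was higher, against 1.12%. Timd4, Vsig4, Cd163 and Cd5l followed at 1.96-, 1.87-, 1.85- and 1.79-fold below YAP (WT), just short of that threshold. The median difference of the 10 genes was −0.86, a 1.82-fold lower level, against −0.03 over all 13628 genes. The low level was not shared by most of a further list of Kupffer cell and macrophage genes, given below. The median of that list was 0.03, with 5 of 22 genes lower and 4 higher beyond the limit. All 11 stellate cell genes measured were also lower beyond the limit.

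**Figure D1:**
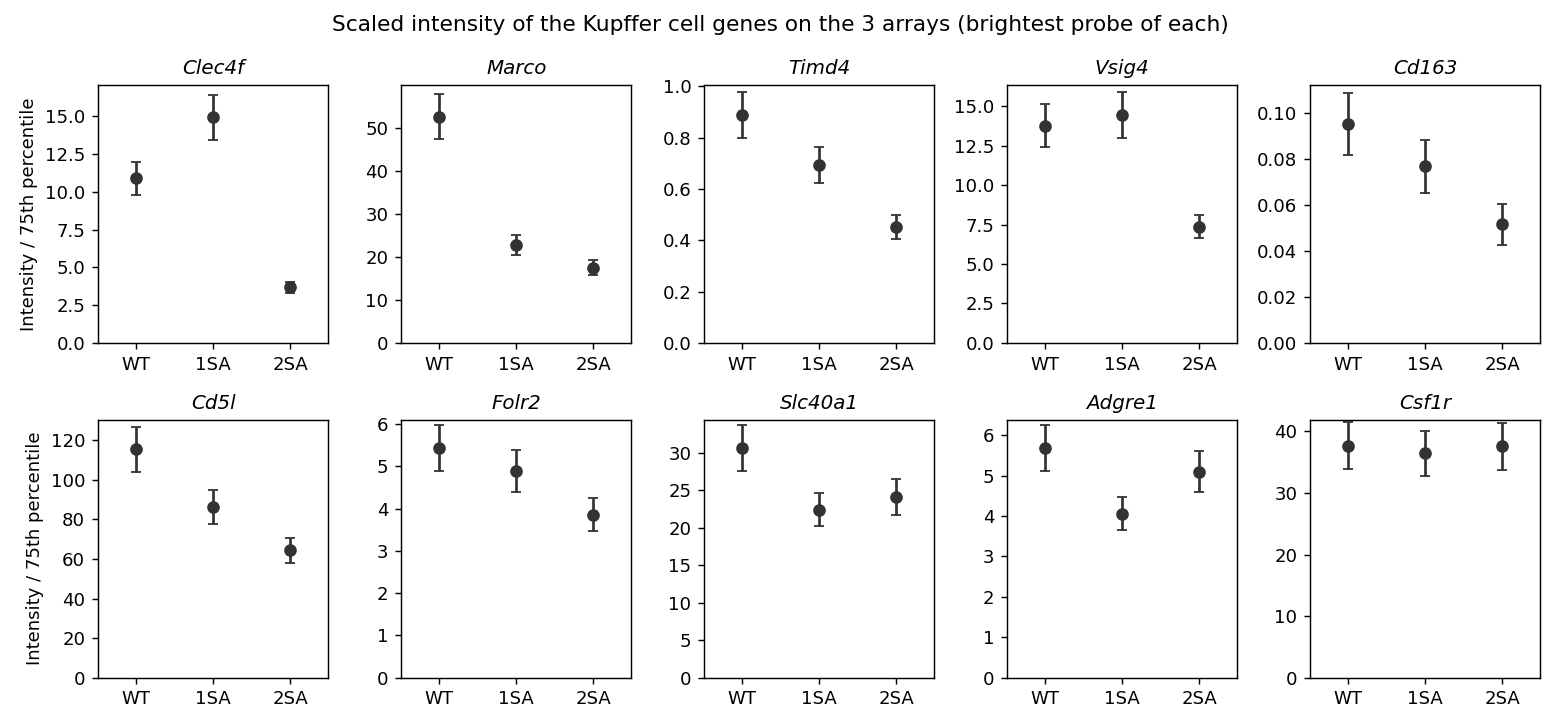
Intensity divided by the 75th percentile of its array (linear axes from 0) for the brightest probe of each of the 10 genes on the YAP (WT), YAP (1SA) and YAP (2SA) arrays, with bars for the error given by the scanner software (1 array per group). YAP (2SA) is the lowest array for 7 genes, with Clec4f at 10.9, 14.9 and 3.69 in this order, and Csf1r lies between 36.4 and 37.7 on all arrays.

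Clec4f and Marco had the largest differences. Clec4f, a C-type lectin that in the liver is made by Kupffer cells, read 3170 in YAP (WT), 4117 in YAP (1SA) and 1178 in YAP (2SA). It was the gene that went both ways, 1.37-fold above YAP (WT) in YAP (1SA), a log2 difference of 0.45, and 2.96-fold below it in YAP (2SA), a difference of −1.56. Between the mutants the difference was 4.05-fold, and only 16 of 13628 genes had a value at or below −2.02 there. Such a pattern, beyond the limit on both sides of YAP (WT), was found in 2.5% of all genes and in no other of the 10. Marco, a scavenger receptor for bacteria and particles, read 15275 in YAP (WT), 6259 in YAP (1SA) and 5571 in YAP (2SA). Unlike Clec4f it was low in both mutants, by 1.21 and 1.59 on the log2 scale, and 20 genes, Marco included, had a value as low in YAP (2SA). The difference of −0.38 between the mutants was beyond the repeat-spot limit and smaller than either difference from YAP (WT).

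Timd4, Vsig4 and Cd5l are genes of uptake and clearance. Timd4, a receptor for phosphatidylserine on dying cells, read 258.0 in YAP (WT), 191.1 in YAP (1SA) and 144.3 in YAP (2SA). It was highest in YAP (WT) and lowest in YAP (2SA), with differences of −0.36 and −0.97 from YAP (WT) and −0.62 between the mutants. Vsig4, the complement receptor that binds C3 fragments on opsonised particles, read 4005 in YAP (WT), 3980.5 in YAP (1SA) and 2353 in YAP (2SA). Here YAP (WT) and YAP (1SA) did not differ beyond the limit, with a difference of 0.07, and YAP (2SA) lay apart at −0.90. Cd5l, a secreted scavenger protein of tissue macrophages, read 33571 in YAP (WT), 23734 in YAP (1SA) and 20581 in YAP (2SA). Its differences of −0.42 and −0.84 from YAP (WT) put the arrays in the same order as for Timd4.

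Cd163, the receptor that clears haemoglobin bound to haptoglobin, was the dimmest probe of the set. Its intensities were 27.7 in YAP (WT), 21.2 in YAP (1SA) and 16.5 in YAP (2SA), with errors between 14.2% and 17.0%. The difference of −0.31 for YAP (1SA) was as large as its error of 0.30, and that of −0.89 for YAP (2SA) exceeded its error of 0.32. With normexp these values became 0.11 and −0.18, so the level of Cd163 is not settled by these arrays. Haptoglobin itself (Hp), made by hepatocytes, differed from YAP (WT) by 0.03 in YAP (1SA) and −0.10 in YAP (2SA).

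Folr2, folate receptor beta of tissue macrophages, and Slc40a1, the iron exporter ferroportin, differed less. Folr2 read 1581 in YAP (WT), 1347 in YAP (1SA) and 1232 in YAP (2SA). YAP (1SA) lay within the limit of YAP (WT) at −0.15, and YAP (2SA) lay below it at −0.50. Slc40a1 read 8924 in YAP (WT), 6186 in YAP (1SA) and 7717 in YAP (2SA). Both mutants were lower, by 0.45 and 0.35 on the log2 scale, and they did not differ from each other beyond the limit. Slc40a1 is also expressed by other liver cells that handle iron, and the mRNA of its ligand hepcidin (Hamp), which sends the exporter for degradation, differed from YAP (WT) by −0.51 in YAP (1SA) and −0.25 in YAP (2SA).

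Adgre1, which encodes the macrophage antigen F4/80, and Csf1r behaved differently from the genes above. The brighter Adgre1 probe read 1654 in YAP (WT), 1119 in YAP (1SA) and 1629 in YAP (2SA), and the second read 769.1, 559.8 and 932.0. Both probes had their lowest value in YAP (1SA), at −0.49 and −0.38 from YAP (WT), and for YAP (2SA) they lay within the limit on either side, at −0.16 and 0.14. The brightest of 3 Csf1r probes read 10963 in YAP (WT), 10041 in YAP (1SA) and 11997 in YAP (2SA), with differences of −0.05 and −0.01. No pair of arrays differed beyond the limit with this probe or with the dimmest, whereas the second probe gave 0.33 for YAP (1SA) and 0.19 for YAP (2SA).

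**Figure D2:**
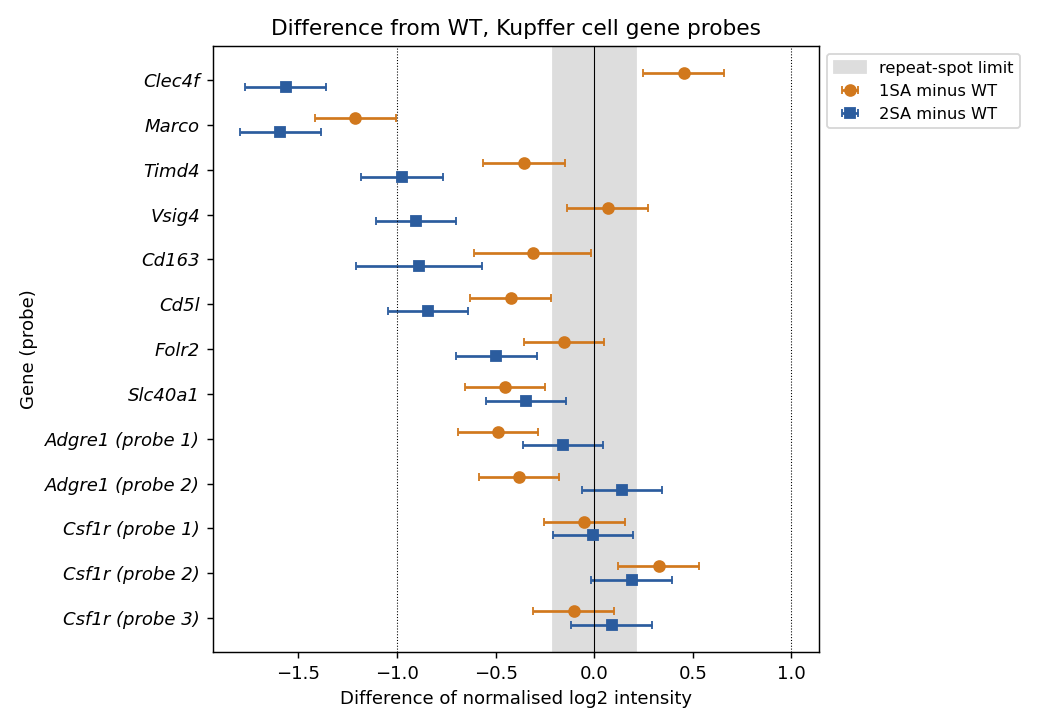
Log2 differences from YAP (WT) of normalised intensity for all 13 probes, YAP (1SA) in orange and YAP (2SA) in blue, with bars for the error given by the scanner software, a grey band for the repeat-spot limit of 0.21 and dotted lines at 2-fold. Clec4f lies on opposite sides at 0.45 and −1.56, Marco lies past the 2-fold line in both at −1.21 and −1.59, and the probes of Adgre1 and Csf1r fall in or near the band for YAP (2SA).

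Against YAP (WT), YAP (1SA) showed a smaller and less uniform difference. In YAP (1SA), 6 of 10 genes were lower beyond the repeat-spot limit (Marco, Timd4, Cd163, Cd5l, Slc40a1 and Adgre1), against 18.8% of all genes, and Clec4f was the 1 gene higher, against 15.8%. With normexp Cd163 left this count and 5 were lower. Marco alone passed 2-fold, at 2.31-fold lower, against 1.14% of genes, and none was 2-fold higher, against 0.726%. The median difference was −0.33, and over all genes it was −0.0017. Both mutants were below YAP (WT) beyond the limit for 5 of 10 genes (Marco, Timd4, Cd163, Cd5l and Slc40a1), against 5.92% of all genes, and with normexp for 4. The 2 comparisons share the YAP (WT) array, so its own level enters both.

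The mutants were also set against each other, a comparison in which YAP (WT) plays no part. YAP (2SA) was lower than YAP (1SA) beyond the limit for 7 of 10 genes, against 23.8% of all genes, and higher for Adgre1 alone, against 21%. Clec4f was the 1 gene lower by 2-fold, against 1.12%, with Vsig4 next at 1.96-fold, and none was 2-fold higher, against 2.47%. YAP (2SA) was the lowest array for 7 genes (Clec4f, Marco, Timd4, Vsig4, Cd163, Cd5l and Folr2), against 42.1% of all genes. YAP (1SA) was the lowest for Slc40a1, Adgre1 and Csf1r, against 34.4%. The median difference between the mutants was −0.40 for the 10 genes and −0.03 for all genes.

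**Figure D3:**
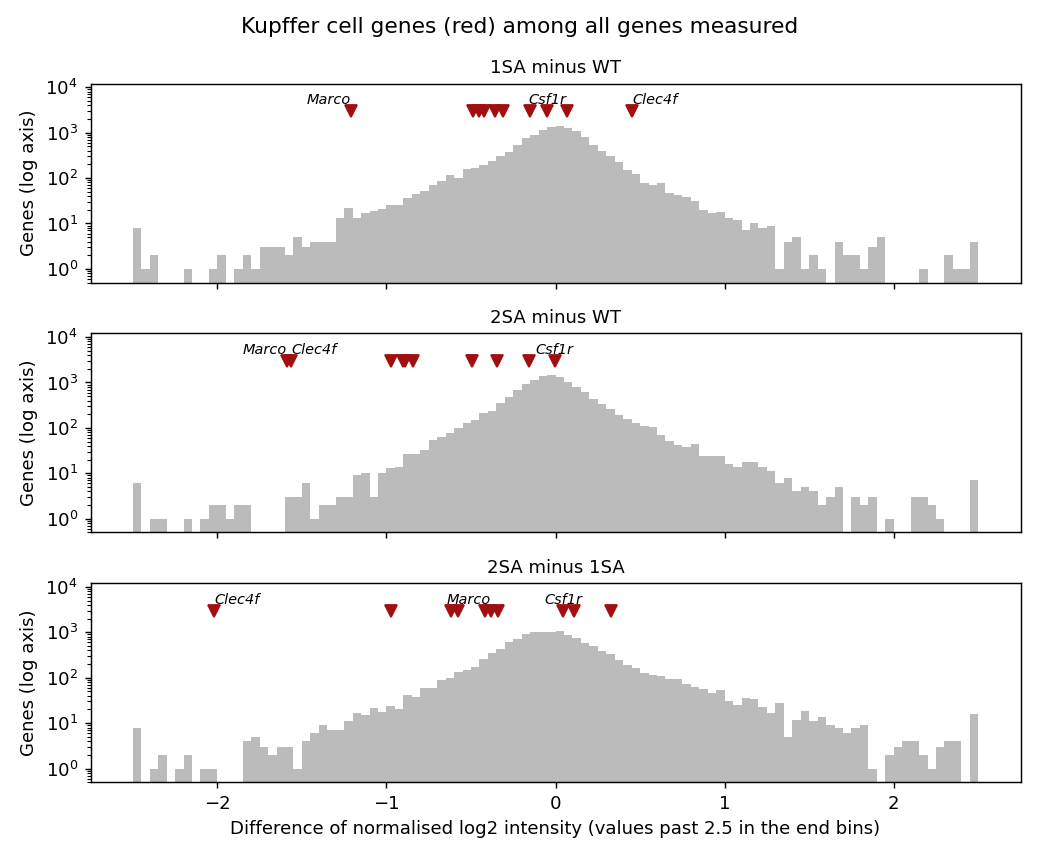
Histograms of the log2 difference of all 13628 genes (grey, counts on a log axis) for the 3 comparisons, with the 10 Kupffer cell genes as red triangles at a fixed height and 3 of them named. In YAP (2SA) against YAP (WT) Clec4f and Marco lie in the lower tail, where 22 and 20 genes had values as low, and Csf1r lies at −0.01.

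For the genes that were lower together in YAP (2SA), the promoters of Clec4f, Marco and Timd4 are shown, the first pair for having the largest differences and Timd4 for its motif match. Windows of 250 bases before the start site were taken from RefSeq (GRCm38.p6), which held 8 windows for 7 of the 10 genes, with no entry for Slc40a1, Adgre1 and Csf1r. Capitals mark motif matches on either strand. Clec4f lies at chr6:83656117-83656366 and Marco at chr1:120505025-120505274, both on the minus strand, and Timd4 at chr11:46810549-46810798 on the plus strand.
Clec4f: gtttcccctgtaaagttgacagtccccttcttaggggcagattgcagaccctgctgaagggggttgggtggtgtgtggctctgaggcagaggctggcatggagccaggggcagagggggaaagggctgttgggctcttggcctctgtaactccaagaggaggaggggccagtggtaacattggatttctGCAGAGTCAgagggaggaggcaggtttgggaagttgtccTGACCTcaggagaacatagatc
Marco: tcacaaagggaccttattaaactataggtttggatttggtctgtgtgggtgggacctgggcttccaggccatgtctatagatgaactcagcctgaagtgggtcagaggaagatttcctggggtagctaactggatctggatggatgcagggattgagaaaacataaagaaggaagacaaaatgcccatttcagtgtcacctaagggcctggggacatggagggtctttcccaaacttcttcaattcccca
Timd4: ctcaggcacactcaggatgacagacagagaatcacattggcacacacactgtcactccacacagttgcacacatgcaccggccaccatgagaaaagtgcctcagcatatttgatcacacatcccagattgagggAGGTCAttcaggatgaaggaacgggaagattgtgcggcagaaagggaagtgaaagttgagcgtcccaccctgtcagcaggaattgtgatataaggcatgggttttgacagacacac

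Motifs were searched by their letters alone on both strands. TGACNNNGC, bound by NRF2 and BACH1, factors of oxidative stress and haem, was present in 2 of 8 windows, those of Clec4f and 1 of Folr2, and in 10.2% of all 32851 windows. AGGTCA, the half-site of nuclear receptors such as LXR, was present in 2 of 8, those of Clec4f and Timd4, and in 14% of all. The PU.1 and IRF patterns searched were in none of the 8 windows, and in 2.44% and 2.98% of all windows. Each was a fixed pattern of letters, and other forms, such as a joint PU.1 and IRF site, were not searched. These windows are thus not shown to lack sequences of either factor. GGAATG, bound by TEAD, through which YAP acts, was in none of 8 and in 12.6% of all. A match here is a run of letters and not a binding site. Of the factors, Bach1 mRNA differed from YAP (WT) by 0.83 in YAP (1SA) and −0.16 in YAP (2SA). Nfe2l2, which encodes NRF2, differed by −0.50 and −0.01, and Nr1h3, an LXR gene, by 0.02 in both. Spi1, which encodes PU.1 and had a dim probe, differed by 0.07 and 0.80, and Irf8 by −0.65 and 0.09. A link between these levels and the motifs was not tested.

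Csf1, the growth factor that acts through CSF1R, had a far larger difference than its receptor. Its brightest probe read 387.6 in YAP (WT), 333.3 in YAP (1SA) and 2897 in YAP (2SA). YAP (2SA) stood alone, at 6.81-fold the level of YAP (WT), and only 3 of 13628 genes were at or above this difference of 2.77. The other 2 Csf1 probes gave 3.39- and 3.15-fold for YAP (2SA) but differences of −0.98 and −0.97 for YAP (1SA), where the brightest gave −0.14. Il34, the second ligand of CSF1R, differed by 0.10 in YAP (1SA) and −0.10 in YAP (2SA), within the limit. Tyrobp, an adaptor of myeloid receptors, differed by −0.59 and 0.12. Of the 18 genes measured in a list of CSF1R ligands, partners and macrophage transcription factors, 10 were lower and 1 was higher in YAP (1SA) beyond the limit. In YAP (2SA) 2 were lower and 6 higher. Over all genes 18.8% were lower and 15.8% higher in YAP (1SA), and 19% and 15.4% in YAP (2SA).

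Other genes of uptake did not share the low level in YAP (2SA). In a list of opsonins, complement and scavenger receptors and bridging proteins, 20 genes were measured, of which 10 were lower and 1 higher in YAP (1SA), and none was lower and 5 were higher in YAP (2SA). Msr1, a scavenger receptor of the class of Marco, differed from YAP (WT) by −0.01 in YAP (1SA) and 0.52 in YAP (2SA), where Marco differed by −1.59. Itgax and Itgb2, subunits of another complement receptor, differed by −1.19 and −0.74 in YAP (1SA) and by 0.34 and 0.35 in YAP (2SA). C3, the opsonin that Vsig4 binds, differed by 0.10 and −0.14, and Gas6, which bridges dying cells to phagocytes, by −0.39 and 0.44. In a list of 26 haem and iron genes 5 were lower and 6 higher in YAP (1SA), and 6 lower and 4 higher in YAP (2SA), with medians of 0.05 and −0.10. Over all genes 18.8% were lower and 15.8% higher in YAP (1SA), and 19% and 15.4% in YAP (2SA). The haem and iron counts lay near these shares and are not read as a result. Slc11a1, an iron transporter of the macrophage phagosome, differed by −0.72 and 0.37.

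A further list of 23 Kupffer cell and macrophage genes was read beside the 10, with 22 measured. In YAP (1SA) 15 of these were lower and 3 higher beyond the limit, against 18.8% and 15.8% of all genes, with a median of −0.40. In YAP (2SA) 5 were lower and 4 higher, against 19% and 15.4% of all genes, with a median of 0.03. The 5 were Clec1b, Id3, Fabp7, Fcna and Pltp, at −0.74 to −0.39. The 4 were Lyz2, Fcgr1, Hmox1 and Id1, at 0.23 to 0.55. Spic, a transcription factor of iron-recycling macrophages, read 1295 in YAP (WT), 581.9 in YAP (1SA) and 1316 in YAP (2SA). It was thus low in YAP (1SA) and close to YAP (WT) in YAP (2SA). In YAP (1SA) the Fc receptor gene Fcgr1 also lay low, at −0.70, against 0.48 in YAP (2SA). Clec1b, a lectin of Kupffer cells, read 2560, 1847 and 1688, with differences of −0.39 and −0.74, and its 3 probes gave −0.64 to −0.74 in YAP (2SA). Of the 4 genes with the largest differences in this list it was the one whose order of arrays matched that of Timd4 and Cd5l.

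Markers of other cells also differed between the arrays, in part in the opposite direction to the 10 genes, and their part in these results was not tested. For the counts that follow, the shares over all genes were 18.8% lower and 15.8% higher in YAP (1SA), and 19% and 15.4% in YAP (2SA). All 8 pan-leukocyte genes were measured, of which 7 were lower in YAP (1SA) and 4 higher in YAP (2SA), with medians of −0.68 and 0.25. Their summed scaled level was 47.6 in YAP (WT), 33.8 in YAP (1SA) and 59.3 in YAP (2SA), where the sum of the 10 Kupffer cell genes was 273.1, 206.7 and 164.1. Both sums were thus lower in YAP (1SA) than in YAP (WT), while in YAP (2SA) the first was higher and the second was the lowest of all. Coro1a, an actin-binding protein of leukocytes, differed by −0.80 and 0.97, and Laptm5, a lysosomal protein of the same cells, by −0.83 and 0.15. In the list of 15 monocyte genes, with 14 measured, 9 were higher and none lower in YAP (2SA), with Ccr2, the receptor by which monocytes leave the marrow, at 0.85 and S100a4 at 1.52. In YAP (1SA) 8 were lower, among them S100a4 at −1.05 and Chil3 at −1.13, but Ccr2 was 2.33 higher and the factor Nr4a1 1.79 higher. The summed level of the list was 385.3 in YAP (WT), 410.3 in YAP (1SA) and 407.7 in YAP (2SA), most of it from F10 and Fn1, which hepatocytes also express. Without these 2 genes, left out after their values were seen, the sum of the other 12 was 67.1, 58.5 and 89.3, lower in YAP (1SA) and higher in YAP (2SA). The largest part of that sum was a single gene, Ly6c1, at 33.8, 27.9 and 46.2. In the list of 16 genes of recruited or activated macrophages, with 14 measured, 9 were lower and 2 higher in YAP (1SA). The lowest were Spp1 at −1.73 and Gpnmb at −1.20. In YAP (2SA) 4 were lower and 3 higher. The sums of that list, led by Arg1, which is also a hepatocyte gene, were 250.2, 213.3 and 255.9.

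Stellate cells and sinusoidal endothelial cells, which border the Kupffer cell, were read in the same way. Of 13 stellate cell genes 11 were measured, and all 11 were lower than YAP (WT) in YAP (2SA) beyond the limit, with a median of −0.61, while 6 were higher and none lower in YAP (1SA), with a median of 0.26. Their summed level was 47.9 in YAP (WT), 51.7 in YAP (1SA) and 30.5 in YAP (2SA), the order of arrays seen for Clec4f. Gdf2, which encodes the ligand BMP9, read 332.1, 477.4 and 177.5, with differences of 0.60 and −1.04, and Colec11, a collectin, differed by 0.37 and −0.71. All 15 endothelial genes were measured, of which none differed beyond the limit in YAP (1SA). In YAP (2SA) 4 were lower and 3 higher, with Clec4g, a lectin of these cells, at −0.59. Over all genes 18.8% were lower and 15.8% higher in YAP (1SA), and 19% and 15.4% in YAP (2SA). The endothelial counts in YAP (2SA) are not read as a result. The sums of the endothelial list were 100.9, 104.8 and 85.1. The 14 hepatocyte genes had medians of 0.11 and −0.16.

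**Figure D4:**
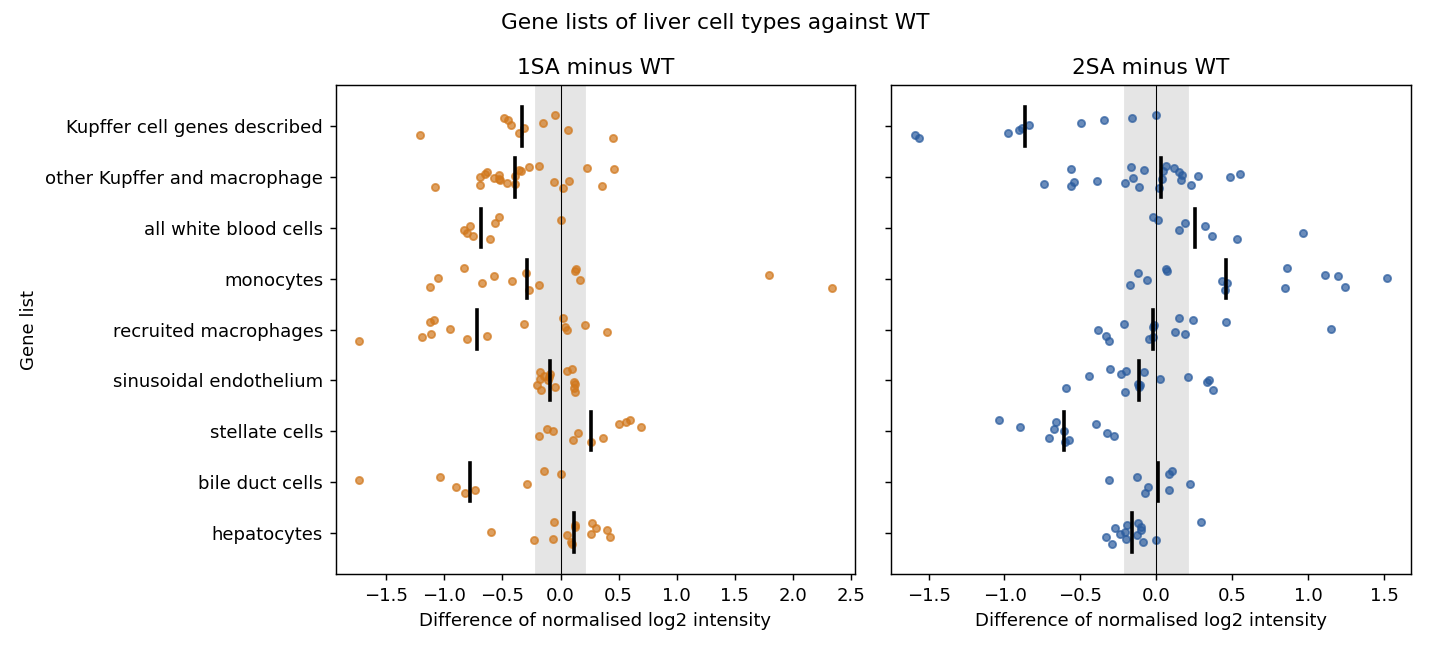
Log2 differences from YAP (WT) for YAP (1SA), left, and YAP (2SA), right, with 1 point per measured gene of each list, a black line at the list's median and a grey band for the repeat-spot limit. In YAP (2SA) the Kupffer cell genes (median −0.86) and the stellate cell genes (median −0.61) lie to the left, and the monocyte genes (median 0.46) lie to the right.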

How the data were processed

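Total liver RNA of 3 groups was labelled with Cy3, 1 sample each, and hybridised to one-colour Agilent mouse arrays on 1 slide. The authors processed the images with Feature Extraction 10.10.1.1, on a design placed on mm9 per the file headers. Deposited intensities are background-subtracted and detrended within each array, with no scaling across arrays. The series matrix of the authors holds the same intensity times 1 constant per array (3.02, 3.08 and 2.81), whose source is not given in the sources used here.

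Spots flagged as outliers were left out (181, 148 and 182), and none was saturated. Spots of a probe were averaged as log2 intensity, less the log2 75th percentile of their array. A probe counted as measured when at least 50% of its spots were well above background. Probes were named by RefSeq accession through a gene table of GRCm38.p6, used for names only, which matched 26775 of 55681 probes to 20292 symbols. Probes under other names were not used. For each gene the brightest probe that all 3 arrays measured was used, and other probes of the 10 genes are given beside it. The levels of different probes were not compared.

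No test was run and no p-value computed, since each group held 1 array. The repeat-spot limit covers spotting error only, and the number of arrays limits the precision. The software's own errors were combined on the log2 scale as the root of the summed squares. The script was checked on simulated arrays.

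The 10 genes and the 15 context lists were chosen with earlier results of these data known. All 10 genes and their probes were named. From each list at most 4 genes with the largest difference from YAP (WT) could be named, plus ligands, adaptors or cargo of the 10. Id3, Fabp7, Fcna, Pltp, Lyz2, Hmox1, Nfe2l2, Irf8, Nr1h3 and Ly6c1 were named after their values were seen. An item of these lists and motifs is not reported here. List counts use the repeat-spot limit. Summed levels are sums of intensity over the 75th percentile and are led by the brightest probes.

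Alternatives were quantile normalisation, the array median, normexp with an offset of 50, the series matrix scaled and as deposited (the latter chosen after seeing the data), no filter and a stricter filter on dim probes, a 3-fold threshold, the mean of a gene's probes, outlier spots kept and saturated probes left out. Normexp used median spot and background brightness. Python 3.11.15, pandas 2.3.3, numpy 2.4.6, matplotlib 3.10.9, R 4.3.3 and limma 3.58.1 were used.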

Additional observations from a re-analysis of the deposited data

Results flagged for a closer look

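Clec4f and the medians of 3 gene lists lay on opposite sides of YAP (WT) in the 2 mutants, each by more than the repeat-spot limit. Clec4f differed by 0.45 in YAP (1SA) and −1.56 in YAP (2SA). The monocyte list had medians of −0.29 and 0.46, the pan-leukocyte list of −0.68 and 0.25, and the stellate cell list of 0.26 and −0.61. Each pair shares the YAP (WT) array, each side is 1 array, and the difference between the mutants was not tested.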

How the results depend on the processing

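With 1 array per group no alternative carries a test, and the limits are those of single samples, single spots and dim probes such as that of Cd163. At a 3-fold threshold no gene of the 10 was lower in YAP (1SA) (0, against 1 at 2-fold) and 1 was lower in YAP (2SA), against 2. With normexp 2 genes (Clec4f and Vsig4), against 1, were 2-fold lower in YAP (2SA) than in YAP (1SA), and the median difference of the 10 genes in YAP (2SA) against YAP (WT) was −0.65. With the stricter filter on dim probes, which Cd163 and Timd4 did not pass, it was −0.67. Under these and the other alternatives that median ran from −0.86 to −0.65, the median for YAP (1SA) from −0.38 to −0.26, and that between the mutants from −0.42 to −0.32. Of the differences beyond the repeat-spot limit, signs turned for Cd163 in YAP (1SA) against YAP (WT) with normexp (0.11), for C3 in YAP (2SA) against YAP (1SA) with quantile normalisation (0.0174), for the dendritic cell list in the same comparison with normexp (−0.0194), and for the neutrophil list in YAP (1SA) against YAP (WT) without a filter (−0.0496). Values within that limit, such as those of Csf1r and Hp, also changed sign under some alternatives. The 2.77 of Csf1 in YAP (2SA) became 2.06 with the mean of its 3 probes. The cause of these shifts was not tested. No paired analysis was possible because no group has a second array, and the slide could not be a block because all 3 arrays lay on it.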

Other observations

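Id3, a factor required for Kupffer cell development, and Fabp7, a fatty acid-binding protein of Kupffer cells, are members of the further Kupffer cell list that were named after their values were seen. Id3 read 3309 in YAP (WT), 4026 in YAP (1SA) and 2459 in YAP (2SA), with differences of 0.36 and −0.56. Fabp7 read 329.6, 429.7 and 245.3, with differences of 0.46 and −0.56. Both had YAP (1SA) as the highest and YAP (2SA) as the lowest array, as Clec4f did. Most of their list did not share this pattern. Of its 22 measured genes 15 were lower in YAP (1SA) beyond the limit, against 18.8% of all genes. The median of the list in YAP (2SA) was 0.03.

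Further blood cell lists were read in the same way. The 6 neutrophil genes measured of 12 had medians of 0.22 in YAP (1SA) and −0.07 in YAP (2SA), the 8 dendritic cell genes of 10 had −0.16 and −0.09, and the 7 lymphocyte genes of 12 had −0.09 and 0.03. The 7 erythroid genes measured of 10 had medians of 0.38 and 0.10. Their summed level was 72.2 in YAP (WT), 123.7 in YAP (1SA) and 92.3 in YAP (2SA). Hbb-bt had the largest differences from YAP (WT) in this list, at 1.01 and 0.53. All 8 bile duct genes were measured, with medians of −0.78 and 0.01, and Spp1, which is in this list and in that of recruited macrophages, lay at −1.73 in YAP (1SA).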
